A study of Homo sapiens with 2 samples.

Results

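The genes of the proteasome and immunoproteasome were taken by name, as every PSMA, PSMB, PSMC, PSMD, PSME, PSMF and PSMG gene plus POMP. The rule found 47 of the 16251 genes in the count matrix, and all 47 were measured, meaning that they reached 5 UMIs per 1000000 counted (CPM) or more in at least 1 library. PSMA8 and PSMB11, the tissue-restricted core subunits, were not analysed here. The cells belonged to the established breast cancer line MDA-MB-453, wild type and triple-negative according to the labels. In 1 culture they were kept for 24 hours with both cytokines, IL1β and TNFα (10 ng/ml), and in the other with the water vehicle. Each culture gave 1 single-cell library, in which unique molecular identifiers (UMIs) count the 3′ ends of transcripts. The study used the experiment to characterise the cells that express TDO2, an enzyme of tryptophan catabolism. The cytokine-treated library held 3163 cells and 69592446 UMIs, and the vehicle library held 2822 cells and 58587996 UMIs. A single culture per condition leaves every comparison without replicates, so p-values were not computed, and the exact 95% intervals describe counting error alone. All 10 luminal epithelial marker genes examined were measured in these libraries, among them EPCAM at 242 CPM in cytokine-treated cells and 227 CPM in vehicle cells. Of 15 leukocyte and stromal marker genes 5 were in the matrix, and COL1A1 alone was measured, at 20.1 CPM in cytokine-treated cells and 20.9 CPM in vehicle cells. Median depth was 21508 UMIs in cytokine-treated cells and 20249 UMIs in vehicle cells, and 8 barcodes occurred in both libraries. The deposited phase calls put 88.5% of cytokine-treated cells and 36.6% of vehicle cells in G1, so the values within G1 are given beside those over all cells.

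The proteasome is the protease that degrades ubiquitin-tagged proteins. Its barrel-shaped 20S core has outer rings of α subunits and inner rings of β subunits, and PSMB5, PSMB6 and PSMB7 carry the cutting sites. Inflammatory signals, best known for interferon γ, make cells exchange these for PSMB8, PSMB9 and PSMB10, which form the immunoproteasome and favour peptides that fit MHC class I molecules. The core is opened either by the 19S cap of PSMC and PSMD subunits or by the PA28 ring of PSME1 and PSME2.

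Promoter stretches of 5 genes are shown because they carry the same interferon-type letters at genes that were higher after cytokine treatment. Each runs from 150 bases before to 30 bases from a RefSeq start site (GRCh38.p14), 5′ to 3′ on the gene's strand, with motif matches in capitals.
PSMB8, chr6:32844018-32844197, minus strand: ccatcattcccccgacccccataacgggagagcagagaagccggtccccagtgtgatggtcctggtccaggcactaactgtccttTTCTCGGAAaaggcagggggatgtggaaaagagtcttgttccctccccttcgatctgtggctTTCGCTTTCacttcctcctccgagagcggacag
PSMB10, chr16:67936821-67937000, minus strand: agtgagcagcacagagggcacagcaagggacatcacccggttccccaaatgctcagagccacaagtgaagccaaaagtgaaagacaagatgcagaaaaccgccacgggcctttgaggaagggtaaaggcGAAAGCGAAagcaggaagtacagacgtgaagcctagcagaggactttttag
PSME1, chr14:24136044-24136223, plus strand: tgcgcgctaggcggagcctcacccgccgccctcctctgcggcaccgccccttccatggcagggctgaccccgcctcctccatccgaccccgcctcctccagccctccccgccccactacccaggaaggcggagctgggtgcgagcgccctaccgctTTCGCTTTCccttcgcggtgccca
PSME2, chr14:24146581-24146760, minus strand: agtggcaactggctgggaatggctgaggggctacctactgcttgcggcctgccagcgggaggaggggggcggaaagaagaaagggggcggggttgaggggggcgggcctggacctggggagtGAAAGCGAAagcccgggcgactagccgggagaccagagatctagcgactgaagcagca
TAP1, chr6:32853675-32853854, minus strand: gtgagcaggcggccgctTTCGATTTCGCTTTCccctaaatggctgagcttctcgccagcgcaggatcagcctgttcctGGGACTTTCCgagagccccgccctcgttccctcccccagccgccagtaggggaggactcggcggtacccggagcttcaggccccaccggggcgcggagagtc
The capitals in PSMB10 and PSME2 are GAAAGCGAA, and those in PSME1 are its reverse complement TTCGCTTTC. PSMB8 holds TTCGCTTTC at its second listed start site and, further upstream, a match to the gamma-activated motif TTCNNNGAA. The TAP1 stretch lies between TAP1 and PSMB9, whose start sites are 488 bases apart on opposite strands, a region long known as a shared promoter of both genes. In it the first run of capitals joins a pair of overlapping matches to the interferon-stimulated response core GAAANNGAA on the reverse strand, and the second is a match to the NF-κB consensus.

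Over all 41 members with a promoter in RefSeq's table (50 windows of 300 bases, 250 before to 50 after the start), GAAANNGAA on either strand was found in 18% of windows, against 8.11% of all 35116 windows. The 9-letter form GAAAGCGAA or its reverse complement was found in 5 member windows (10%), those of PSMB8, PSMB10, PSME1, PSME2 and PSMG4, against 94 of 35116 windows (0.268%), and was searched for after these matches had been seen. TTCNNNGAA was found in 14% of member windows and 7.66% of all windows, the antioxidant motif TGACNNNGC in 30% and 13.3%, and CCAAT in 38% and 34.6%. The NF-κB consensus was found in 2% of member windows and 5.91% of all windows. The windows of PSMB9 and PSMA6 themselves held neither GAAANNGAA nor the NF-κB consensus. Such matches describe letters only, and PSMG4, which shares them, was lower in cytokine-treated cells (log2 ratio -0.39).

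The catalytic subunits of the immunoproteasome were all higher in cytokine-treated cells, by very different factors. PSMB9, the subunit that takes the place of PSMB6, stood at 13.4 CPM in cytokine-treated cells (935 UMIs), against 0.973 CPM in vehicle cells (57 UMIs), a 13.8-fold difference (log2 ratio 3.79, interval 3.40 to 4.20). PSMB8, which takes the place of PSMB5, stood at 17.2 CPM in cytokine-treated cells and 4.76 CPM in vehicle cells (log2 ratio 1.85, interval 1.66 to 2.05). PSMB10, which takes the place of PSMB7, stood at 83.8 CPM in cytokine-treated cells and 54.6 CPM in vehicle cells (log2 ratio 0.62, interval 0.56 to 0.68). The order of the 3 levels thus ran against the order of the 3 ratios, with PSMB10 the most counted subunit in both libraries and the one whose ratio was smallest. Since UMIs are counted once per transcript 3′ end, these levels are not scaled by gene length.

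**Figure D1:**
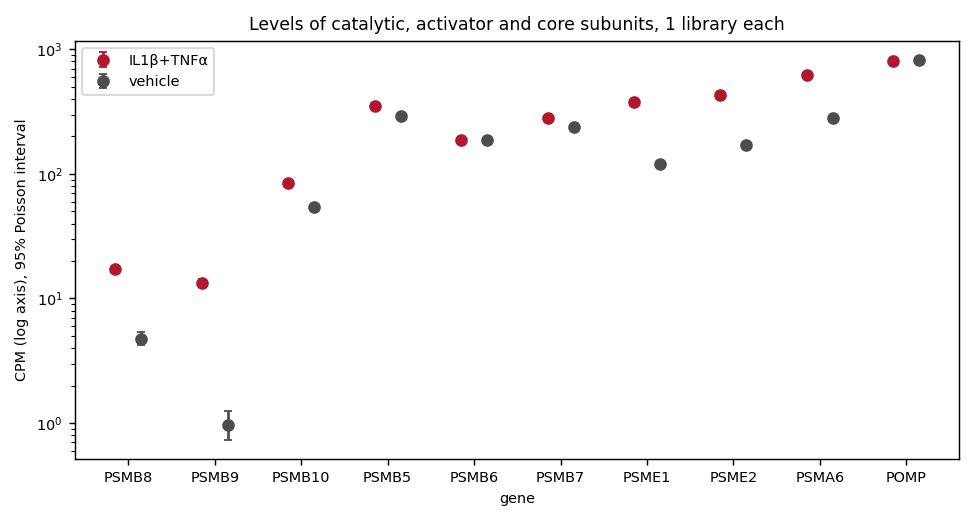
CPM on a log axis of 10 proteasome genes in the cytokine-treated library (red, left of each pair) and the vehicle library (grey), 1 library each, with 95% Poisson intervals that are often smaller than the points. PSMB9 stands at 13.4 CPM against 0.973 CPM, while the points of PSMB6 and of POMP lie side by side.

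The constitutive catalytic subunits differed less. PSMB5 stood at 354 CPM in cytokine-treated cells and 292 CPM in vehicle cells (log2 ratio 0.28, interval 0.25 to 0.30). PSMB7 stood at 283 CPM in cytokine-treated cells and 237 CPM in vehicle cells (log2 ratio 0.26, interval 0.23 to 0.29). PSMB6 stood at 187 CPM in both libraries, with a log2 ratio of 0.01 (interval -0.03 to 0.04) that was -0.12 in G1 cells and 0.20 under scaling by DESeq2 size factors, so that no direction is given for it. Under scaling by library totals none of the 3 was at least 25% higher or 20% lower, the smaller of the limits used here, whereas under scaling by DESeq2 size factors PSMB5 (0.47) and PSMB7 (0.45) were at least 25% higher, as they were under TMM. The summed level of the 3 was 824 CPM in cytokine-treated cells and 716 CPM in vehicle cells.

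Set against the subunit whose place it takes, each immunoproteasome gene held a larger share of the pair's UMIs in cytokine-treated cells, a measure that does not depend on library scaling. PSMB9 was 6.69% of the PSMB9 and PSMB6 UMIs in cytokine-treated cells (interval 6.28 to 7.12), against 0.519% in vehicle cells (0.393 to 0.671). PSMB8 was 4.64% of the PSMB8 and PSMB5 UMIs in cytokine-treated cells (4.38 to 4.90), against 1.60% in vehicle cells (1.42 to 1.80). PSMB10 was 22.9% of the PSMB10 and PSMB7 UMIs in cytokine-treated cells (22.3 to 23.4), against 18.7% in vehicle cells (18.2 to 19.3). The transcripts of the constitutive subunits thus stayed in the majority for every pair, also after cytokine treatment. Summed over the 6 genes, the immunoproteasome share was 12.2% in cytokine-treated cells (11.9 to 12.4) and 7.78% in vehicle cells (7.53 to 8.03), and within G1 it was 12.2% in cytokine-treated and 6.98% in vehicle cells. Most of the immunoproteasome UMIs were PSMB10, 5834 of 7967 in cytokine-treated cells and 3200 of 3536 in vehicle cells.

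Both subunits of the PA28 activator were higher in cytokine-treated cells, from levels already well above those of PSMB8 and PSMB9. PSME1 stood at 379.9 CPM in cytokine-treated cells and 119 CPM in vehicle cells (log2 ratio 1.67, interval 1.63 to 1.71). PSME2 stood at 427 CPM in cytokine-treated cells and 169.9 CPM in vehicle cells (log2 ratio 1.33, interval 1.30 to 1.36). PSME1 made up 47.1% of the UMIs of the pair in cytokine-treated cells and 41.3% in vehicle cells. The other activators went the other way or moved little. PSME3, the nuclear PA28γ, stood at 19.7 CPM in cytokine-treated cells and 25.6 CPM in vehicle cells (log2 ratio -0.38, interval -0.49 to -0.27), and PSME4 (PA200) had a log2 ratio of -0.17 that was 0.03 under scaling by DESeq2 size factors. PSMF1, the inhibitor PI31, stood at 124 CPM in cytokine-treated cells and 75.6 CPM in vehicle cells (log2 ratio 0.72, interval 0.67 to 0.77).

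In the rest of the 20S core 1 gene stood apart. PSMA6, a subunit of the α ring, stood at 628 CPM in cytokine-treated cells and 279 CPM in vehicle cells (log2 ratio 1.17, interval 1.14 to 1.19), while the other 6 α subunits ranged from -0.25 for PSMA7 to 0.69 for PSMA3. PSMA7 was the α subunit with the highest level, at 768 CPM in cytokine-treated cells and 914 CPM in vehicle cells, and PSMA3 stood at 279.9 CPM in cytokine-treated cells and 174 CPM in vehicle cells. In the particle the 7 α subunits occur in equal numbers, whereas their transcript levels and ratios here were unequal. The 4 structural β subunits lay close together, with log2 ratios of 0.20 for PSMB3, 0.39 for PSMB4, 0.40 for PSMB1 and 0.40 for PSMB2. Without the 3 immunoproteasome subunits, 13 of the 14 core genes had a ratio above 0 under library totals, against 33.6% of measured genes. The 13 include PSMB6 at 0.01, for which no direction is given. Shares above 0 depend on the scaling, since the median of all measured genes was -0.20 under library totals and -0.01 under TMM. Above the median of -0.20 lay 13 of the 14. At least 25% higher were 6 of the 14, against 16.2%, and the median log2 ratio of the 14 was 0.29.

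The genes of the 19S cap spread over both sides of 0. Of the 6 PSMC genes, the ATPases that unfold substrates, 5 had a ratio above 0 under library totals, against 33.6% of measured genes. All 6 lay above the median of all measured genes (-0.20). At least 25% higher were 3 of the 6, against 16.2% of measured genes, PSMC2 and PSMC4 (log2 ratio 0.68 each) and PSMC6 (0.45). The median of the 6 was 0.32 and the lowest was PSMC3 at -0.06, which was 0.13 under scaling by DESeq2 size factors. The 14 PSMD genes had a median of -0.14, which was 0.04 under scaling by TMM, so that the group as a whole has no firm direction. They include the base chaperones PSMD5, PSMD9 and PSMD10, and the 8 lid subunits alone had a median of 0.04, with 5 above 0 and a range from -0.31 to 0.68 that spans that of PSMC. At least 25% higher were 2 of the 14, about the share of all measured genes (16.2%). These were PSMD4, a ubiquitin receptor in the base, at 177 CPM in cytokine-treated cells and 119.6 CPM in vehicle cells (log2 ratio 0.57), and PSMD6, in the lid, at 57.0 CPM in cytokine-treated cells and 35.4 CPM in vehicle cells (0.68). The scaffolds of the base, PSMD1 and PSMD2, had ratios of -0.26 and -0.23, and the deubiquitinase PSMD14 of the lid had -0.18, which was 0.015 under scaling by DESeq2 size factors. Summed over all PSMC and PSMD genes, the level was 2446 CPM in cytokine-treated cells and 2276 CPM in vehicle cells. This is a total by gene name, which includes the base chaperones and leaves out the cap genes ADRM1 and SEM1. The core without the immunoproteasome subunits took 4199 CPM in cytokine-treated cells and 3463 CPM in vehicle cells.

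Over all cells the 3 lowest ratios of all members belonged to assembly chaperones, while the other chaperones lay closer to 0. Within G1 cells PSMD5 (-0.60) and PSMG3 (-0.39) were lowest, followed by the activator PSME3 (-0.35) and then PSMG4 (-0.34). PSMG1 had -0.03 and PSMG2 had 0.10 in G1 cells. PSMG3, which helps build the α ring, stood at 72.3 CPM in cytokine-treated cells and 111 CPM in vehicle cells (log2 ratio -0.61, interval -0.67 to -0.56). Its partner PSMG4 stood at 24.9 CPM in cytokine-treated cells and 32.7 CPM in vehicle cells (log2 ratio -0.39). PSMD5, a chaperone of the 19S base despite its name, stood at 22.8 CPM in cytokine-treated cells and 33.5 CPM in vehicle cells (log2 ratio -0.55). The other base chaperones, PSMD9 and PSMD10, had ratios of -0.18 and -0.31, and the core chaperones PSMG1 and PSMG2 had -0.22 and -0.09, of which those of PSMD9 and PSMG2 changed sign with the scaling. Members of other roles lay in the same range, PSME3 at -0.38, PSMD3 at -0.31, PSMD1 at -0.26 and PSMA7 at -0.25. POMP, the chaperone that completes the core and that immunoproteasome assembly needs, was the most counted chaperone and stood at 805 CPM in cytokine-treated cells and 819 CPM in vehicle cells, with a log2 ratio of -0.02 that was 0.17 under scaling by DESeq2 size factors.

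Taking the 47 genes as a whole, their transcripts made up 0.873% of all UMIs in cytokine-treated cells and 0.728% in vehicle cells. Of the 47, 5 (10.6%) passed 2-fold higher, PSMB8, PSMB9, PSME1, PSME2 and PSMA6, against 4.29% of the 9192 measured genes, and 0 passed 2-fold lower, against 7.48%. Of the 5, PSMB8 (4.76 CPM) and PSMB9 (0.973 CPM) were under 5 CPM in vehicle cells and so were measured through the cytokine-treated library alone. At least 25% higher were 17 (36.2%), against 16.2% of measured genes, and at least 20% lower were 4 (8.51%), PSMG3, PSMG4, PSMD5 and PSME3, against 38.6%. Within G1 cells the counts were 5, 16 and 4 for 2-fold higher, 25% higher and 20% lower, against 4.44%, 17.1% and 33.3% of measured genes. The median log2 ratio was 0.19 over the members and -0.20 over all measured genes, and 37 members lay above that median of all genes. Scaling by TMM, which shifted every log2 ratio by 0.18, gave 25 members at least 25% higher and 2 at least 20% lower, against 25.4% and 24.7% of measured genes. A ratio close to 0 should therefore be read against the median of all genes, whereas the 5 genes past 2-fold remained so under each of the 6 other scalings and cell choices. The 5 genes of the immunoproteasome and PA28 had a median log2 ratio of 1.67, against 0.26 for PSMB5, PSMB6 and PSMB7, 0.32 for PSMC and -0.14 for PSMD.

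**Figure D2:**
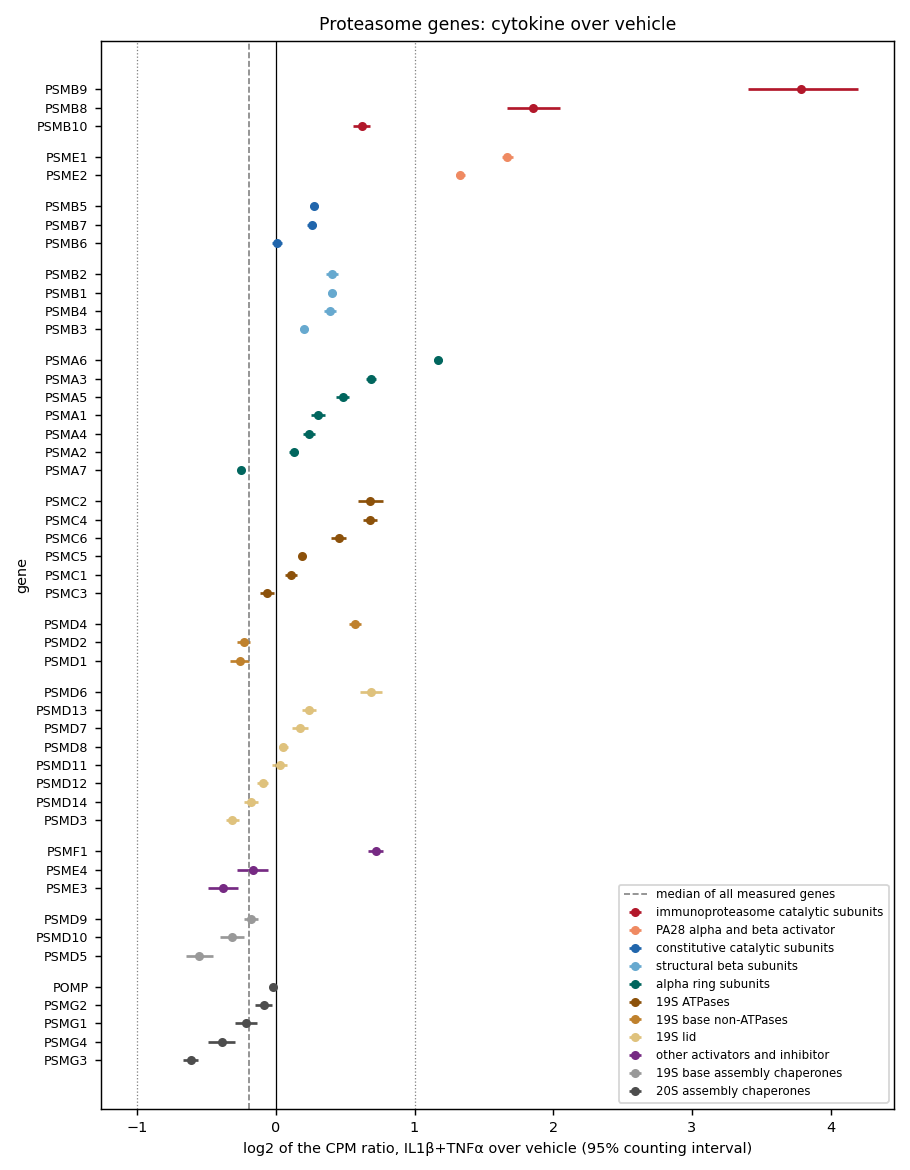
Log2 ratio of CPM in the cytokine-treated library over the vehicle library for each of the 47 genes, grouped by role (colour), with 95% counting intervals. The solid line marks 0, dotted lines mark 2-fold and the dashed line marks the median of all measured genes (-0.20), and PSMB9 lies farthest to the right at 3.79 while PSMG3 lies farthest to the left at -0.61.

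Several members with high ratios lay close to other genes that were much higher in cytokine-treated cells, which was looked for after the ratios had been seen. NFKBIA, the NF-κB inhibitor, is the nearest measured gene on the higher-coordinate side of PSMA6 on chromosome 14, 84.0 kb away, and stood at 1069 CPM in cytokine-treated cells and 79.4 CPM in vehicle cells (log2 ratio 3.75). PRORP, on the other side of PSMA6 with 0.936 kb between them, had a ratio of -0.11. PSME1 and PSME2 lie 4.40 kb apart on the same chromosome, and 14.7 kb beyond PSME2 lies IRF9, a subunit of an interferon-responsive transcription factor, at 29.2 CPM in cytokine-treated cells and 2.92 CPM in vehicle cells (log2 ratio 3.32). The genes in between did not share this, with ratios of -0.24 for EMC9 and 0.09 for RNF31. PSMB8 and PSMB9 lie 9.51 kb apart on chromosome 6 with TAP1 between them, and TAP1, a chain of the peptide transporter for MHC class I, stood at 20.2 CPM in cytokine-treated cells and 3.28 CPM in vehicle cells (log2 ratio 2.62). The other measured genes within 150 kb of this pair had ratios of 0.67 for TAP2, 0.71 for HLA-DMA and -0.39 for BRD2. PSMF1 on chromosome 20 was followed within 150 kb by TMEM74B, SNPH and SDCBP2, with ratios of 3.91, 3.80 and 3.18. A measured neighbour past 2-fold higher within 150 kb was found for 10 of 47 members (21.3%), against 13.2% of 8738 measured genes with a RefSeq position. It was found for 5 of the 5 members past 2-fold higher, of which 4 have another of the 5 as a neighbour, and for 96 of 365 (26.3%) of all such genes. The median number of measured neighbours in that window was 4 for the members and 3 for all genes, and 5 for the 5 members and 3 for all genes past 2-fold higher, and its part in these shares was not tested. PSMB10 had no such neighbour.

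**Figure D3:**
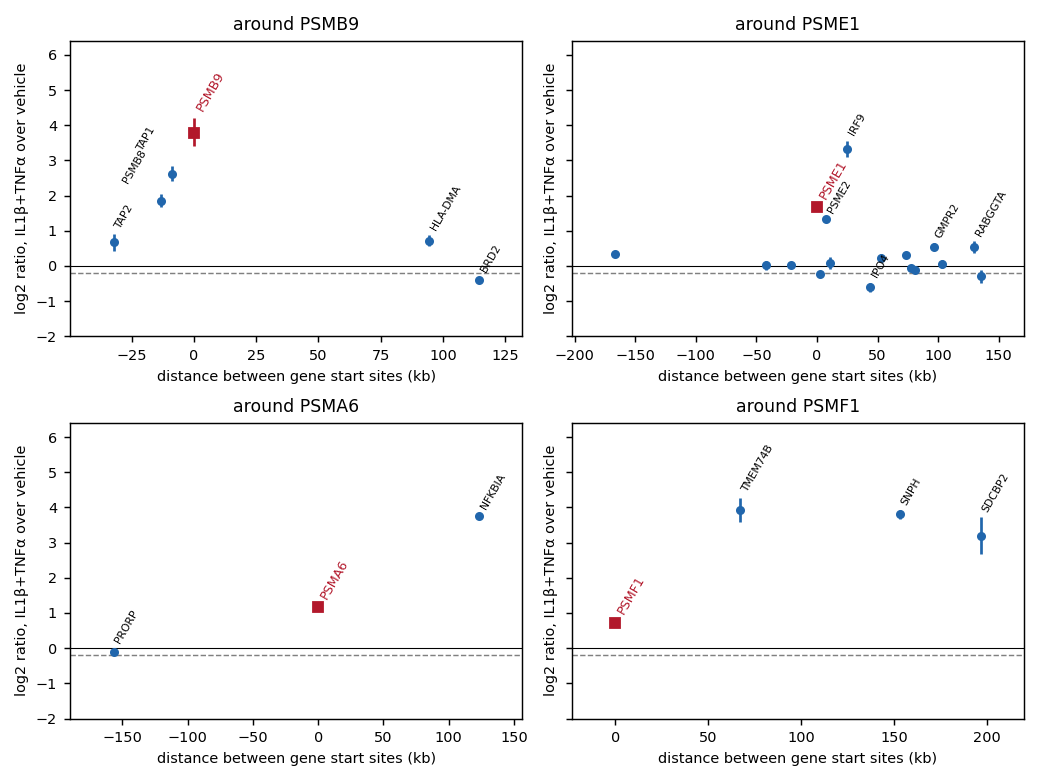
Log2 ratio (cytokine-treated over vehicle, 95% counting interval) of PSMB9, PSME1, PSMA6 and PSMF1 (red squares) and of measured genes within 150 kb (blue). The horizontal axis, labelled as distance between gene start sites, is the distance in kb between the low-coordinate ends of the genes. For a gene on the minus strand that end is not the start site of transcription. Labels in the PSME1 panel are limited to ratios past 0.5 in size, the dashed line is the median of all measured genes, and IRF9 (3.32), NFKBIA (3.75) and SNPH (3.80) stand above the member beside which they lie.

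Genes that act with the proteasome moved unevenly. Of 16 genes of the MHC class I pathway 12 were measured, and 7 of these passed 2-fold higher and 11 were at least 25% higher, against 4.29% and 16.2% of measured genes, with a median log2 ratio of 1.39. HLA-B had the largest ratio, with 32.8 CPM in cytokine-treated cells and 1.88 CPM in vehicle cells (log2 ratio 4.13), and TAPBP, which loads peptides, had 2.10. HLA-B, TAP1, TAP2 and ERAP2 were under 5 CPM in vehicle cells and so were measured through the cytokine-treated library alone. Reads that match more than 1 of the closely similar HLA genes, or a pseudogene copy of a member such as PSME2, can be lost or misplaced in counting, which was not tested. Of 13 measured transcription factors, receptors and kinases that are known to raise immunoproteasome genes or to act in interferon and NF-κB signalling, 5 passed 2-fold higher, against 4.29% of measured genes, RELB (6.61), IRF1 (3.84), NFKB2 (3.50), IRF9 (3.32) and the interferon γ receptor chain IFNGR1 (2.79). IRF1 stood at 21.4 CPM in cytokine-treated cells and 1.502 CPM in vehicle cells. RELB (0.29 CPM), NFKB2 (3.77 CPM) and IRF9 (2.92 CPM) were likewise under 5 CPM in vehicle cells. These and IRF1 were therefore measured through the cytokine-treated library alone, and the share of all measured genes rests on the same rule. With 17 UMIs in vehicle cells, the interval of RELB was 5.93 to 7.39. Upstream of the proteasome, the ubiquitin gene UBB had a ratio of 0.69, the proteasome gene activator NFE2L1 had 0.15, and DDI2, the protease that processes it, had -0.82. Another 14 measured genes lie outside the name rule and encode further cap subunits (ADRM1 and SEM1) or proteins that act on the proteasome or its substrates. None of the 14 was at least 25% higher, against 16.2% of measured genes, and 4 (28.6%) were at least 20% lower, against 38.6%. The median of the 14 was -0.20, which equals that of all measured genes. Under scaling by TMM 2 of them were at least 25% higher and 1 was at least 20% lower, against 25.4% and 24.7% of measured genes. The lowest ratio was that of the deubiquitinase UCHL5, at 33.2 CPM in cytokine-treated cells and 63.0 CPM in vehicle cells (log2 ratio -0.92).

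Detection cell by cell was compared after each cell had been thinned to 15000 UMIs, which left 3033 cytokine-treated cells and 2586 vehicle cells and set aside 130 shallower cytokine-treated and 236 shallower vehicle cells. A UMI of PSMB9 was found in 15.6% of cytokine-treated cells (interval 14.3 to 16.9) and 1.47% of vehicle cells (1.04 to 2.01), or 20.7% of cytokine-treated and 2.02% of vehicle cells without thinning. A UMI of PSMB8 was found in 20.5% of cytokine-treated cells (19.1 to 22.0) and 6.34% of vehicle cells (5.43 to 7.35), or 27.9% of cytokine-treated and 8.58% of vehicle cells without thinning. For PSMB10 the shares were 66.8% of cytokine-treated cells and 53.6% of vehicle cells, or 77.1% of cytokine-treated and 64.5% of vehicle cells without thinning. The material is 1 cell line and holds no cell type that should lack these genes, so the share that free RNA would give was not measured. PSMB5, PSMB6, PSMB7 and PSMA6 were found in 89.9% to 99.3% of cells of each library at the thinned depth. PSME1 was found in 97.9% of cytokine-treated cells and 78.8% of vehicle cells. PSMB8 and PSMB9 were found together in 5.47% of cytokine-treated cells, where the product of the separate shares is 3.19%, and in 0.271% of vehicle cells, where it is 0.0932%.

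The immunoproteasome share of the 6 catalytic genes' UMIs in a thinned cell had a median of 10% in cytokine-treated cells and 6.25% in vehicle cells, and its upper quartile was 18.2% in cytokine-treated and 13.3% in vehicle cells. No immunoproteasome UMI was counted in 25.1% of cytokine-treated cells and 43.2% of vehicle cells. With a median of 12 constitutive UMIs in a cytokine-treated cell and 10 in a vehicle cell, a single UMI moves the share by several percent, and cells without one are not shown to lack the transcripts. Immunoproteasome UMIs outnumbered constitutive ones in 14 cytokine-treated and 4 vehicle cells. Correlations across cells within a library, over which cells share depth, were weak for PSMB9 among members at CPM 20 or more, with Pearson r of 0.21 with PSMB10, 0.19 with PSME2, 0.16 with PSME1, 0.12 with PSMA3 and 0.11 with PSMB2 over 3163 cytokine-treated cells, and at most 0.03 over 2822 vehicle cells. With PSMB8, which like PSMB9 itself lies under that level, r was 0.26 in cytokine-treated cells and 0.06 in vehicle cells. PSMB9 had 57 UMIs over all vehicle cells, a count that limits any r there. PSME1 and PSME2 had an r of 0.50 in cytokine-treated cells and 0.29 in vehicle cells. The highest r was 0.59 for PSMB1 with PSMA6 in cytokine-treated cells and 0.51 for PSMB1 with PSMB3 in vehicle cells. Over all pairs of members at CPM 20 or more the median r was 0.20 in cytokine-treated cells (903 pairs) and 0.12 in vehicle cells (990 pairs). The r of PSMB9 with PSMB10 thus lay near the median for cytokine-treated cells.

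**Figure D4:**
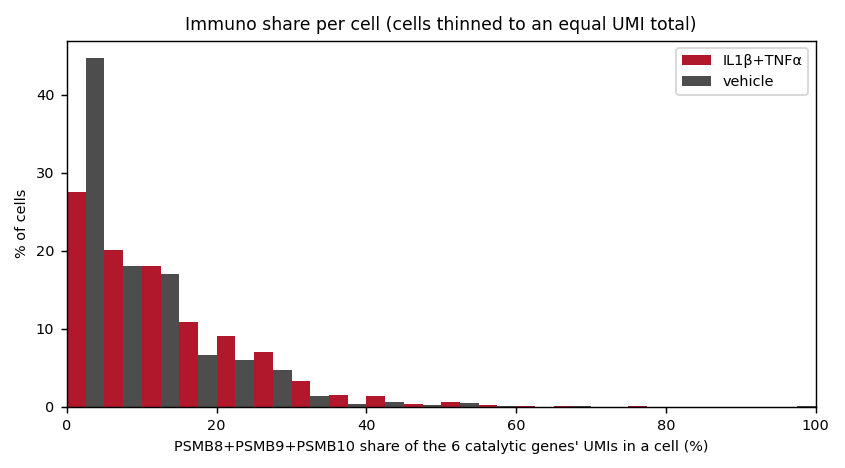
Percent of cells by the share of PSMB8, PSMB9 and PSMB10 among UMIs of the 6 catalytic genes, in cells thinned to 15000 UMIs (red, cytokine-treated, left bar of each pair; grey, vehicle). The lowest bin is taller in vehicle cells, where 43.2% of cells had no immunoproteasome UMI, against 25.1% of cytokine-treated cells.

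Within the deposited phase calls the direction held for the genes past 2-fold. The log2 ratio of PSMB9 was 4.27 in G1, 3.31 in S and 4.59 in G2M cells, the last over 40 cytokine-treated cells with 16 UMIs and 517 vehicle cells with 9 UMIs. That of PSMB8 was 1.97, 1.44 and 1.72 in G1, S and G2M, that of PSME1 was 1.59, 1.45 and 1.26, and that of PSME2 was 1.28, 1.13 and 1.15. PSMA6 had 1.20, 0.72 and 1.34, so that it did not reach 2-fold in S cells. PSMB10 varied more, with 0.73 in G1, 0.05 in S (interval -0.09 to 0.20) and 0.93 in G2M, and in vehicle cells its own level was 51.9 CPM in G1, 64.4 CPM in S and 35.6 CPM in G2M. Over all members the median ratio was 0.15 in G1, -0.06 in S and 0.34 in G2M.

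The deposited cell table assigns 6 clusters. The methods describe an integration of both libraries after sctransform normalization, with the difference of S and G2M scores regressed out, for visualization, and the clustering step itself is not given in the sources used here, so levels by cluster are a description. Cluster 2 held almost no G1 cells in either library (1.06% of its cytokine-treated and 0% of its vehicle cells). In the other clusters 88.1% to 98.8% of cytokine-treated cells and 43.3% to 54.1% of vehicle cells were called G1. Ratios by cluster therefore also compare cells of unlike phase. With G1 cells of a cluster alone, 37 of 44 ratios of PSMB5 to PSMB10, PSME1, PSME2 and PSMA6 stayed within their interval and 7 did not. PSMB9 was lowest in cluster 0 of the cytokine-treated library (6.58 CPM, 1100 cells) and highest in cluster 5 (22.2 CPM, 134 cells), with 21.5 CPM in cluster 1 (728 cells). In vehicle cells it ranged from 0 UMIs in cluster 0 (283 cells) to 1.53 CPM in cluster 2. A set floor of 3 UMIs in cluster 0, which is not the upper limit of the exact interval, would equal 0.518 CPM. PSMB8, PSME1, PSME2 and PSMA6 were also higher in cytokine-treated cells of all 6 clusters, with log2 ratios of 1.39 to 3.04, 1.26 to 1.72, 0.88 to 1.42 and 0.87 to 1.33. PSMB10 was higher in 5 of 6, and in cluster 4 it stood at 52.2 CPM in cytokine-treated cells and 66.3 CPM in vehicle cells (log2 ratio -0.34, interval -0.54 to -0.15). Cluster 4 was thereby the cluster in which the summed immunoproteasome share did not differ beyond counting error, at 10.9% in cytokine-treated cells (9.96 to 11.9) and 11.2% in vehicle cells (10.4 to 12.1), although PSMB8 and PSMB9 were higher there. In cluster 1 the share was widest apart, at 15.99% in cytokine-treated cells and 8.70% in vehicle cells.

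Most members shared a pattern over the clusters. In cytokine-treated cells 29 of 47 were highest in cluster 3 and 40 were lowest in cluster 4, where 19.5% and 22.4% of all measured genes had their highest and lowest values. In vehicle cells 34 were highest in cluster 3 and 35 lowest in cluster 4, where the shares of all measured genes were 18.3% and 17.4%. The summed level of the members was 11245 CPM in cytokine-treated cells of cluster 3 and 9775 CPM in its vehicle cells, and 5760 CPM in cytokine-treated and 5703 CPM in vehicle cells of cluster 4. The ribosomal protein genes ran the other way, with 238926 CPM in cytokine-treated cells and 271852 CPM in vehicle cells of cluster 3, and 316758 CPM in cytokine-treated and 327667 CPM in vehicle cells of cluster 4. Median depth was 24129.5 UMIs in cytokine-treated cells and 21574 UMIs in vehicle cells of cluster 3, and 18880 UMIs in cytokine-treated and 19228.5 UMIs in vehicle cells of cluster 4. Their part in the pattern was not tested. PSMB9 left this order, with its highest level in cluster 5 (56 UMIs) and its lowest in cluster 0 of the cytokine-treated library. It was not alone in this. In that library 12 of 47 members were highest in cluster 5 and 2 were lowest in cluster 0, against 24.7% and 10.6% of all measured genes.

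**Figure D5:**
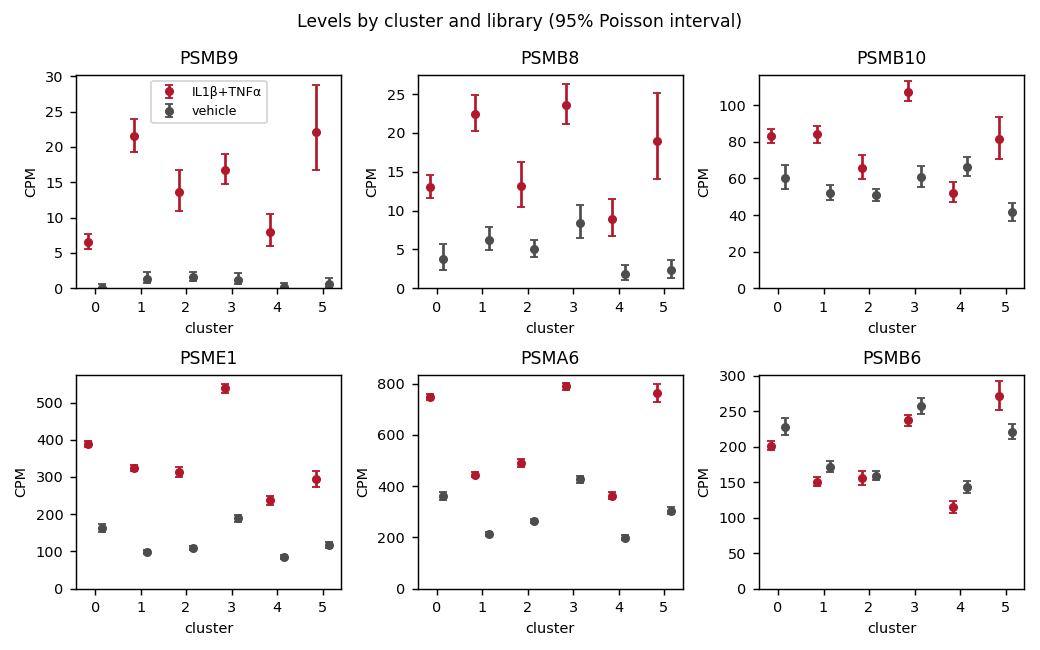
CPM by deposited cluster (0 to 5) of PSMB9, PSMB8, PSMB10, PSME1, PSMA6 and PSMB6 in the cytokine-treated library (red, left) and the vehicle library (grey), with 95% Poisson intervals. The red points lie above the grey ones in every cluster for PSMB9, PSMB8, PSME1 and PSMA6, while PSMB10 is turned round in cluster 4 (52.2 CPM against 66.3 CPM) and PSMB6 is higher in cytokine-treated cells in cluster 5 alone.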

How the data were processed

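UMI counts were made by the authors in Cell Ranger 3.1.0 (GRCh38) and deposited as raw counts, after removing in Seurat 4.0.4 cells with 50000 or more UMIs, 3000 or fewer or 5000 or more genes, or mitochondrial UMIs of 15% or more. The authors also deposited a cell table with the percent of mitochondrial UMIs, phase calls and clusters. Per the methods both libraries were integrated in Seurat with sctransform and regression on the S and G2M score difference, for visualization, while the clustering step is not given in the sources used here. Per the methods 3000 cells were collected, while the table holds 3163 cytokine-treated and 2822 vehicle cells. The labels and methods give 24 hours of treatment, and a legend of the study gives a longer time. Doublets were not called here.

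UMIs were summed per library and expressed as CPM with exact Poisson intervals, and log2 ratios were given exact conditional binomial intervals. Genes that reached CPM 5 in either library were called measured. A gene was counted when its ratio was at least 2-fold higher or lower, or at least 25% higher or 20% lower (the same fold in either direction), and its interval left out 0. Shares of cells were taken after thinning to 15000 UMIs, with Clopper-Pearson intervals. Correlations used ln(1 + 10000 × fraction of a cell's UMIs), and those with PSMB9 over members at CPM 20 or more. Role groups, pathway lists and members were chosen with earlier results of these data known. Named in full were PSMB5 to PSMB10, PSME1, PSME2, POMP, members past 2-fold and the 5 highest and 5 lowest ratios, and up to 4 genes of each other list with the largest ratios plus TAP1, IRF1 and NFE2L1. Some genes that this rule would name are not reported here. Other members named, the neighbours and GAAAGCGAA were chosen after values had been seen. Promoters and positions came from RefSeq (GRCh38.p14). As alternatives, TMM (edgeR 4.0.16) and size factors of DESeq2 1.42.0 were used for scaling, as were totals without ribosomal and mitochondrial genes, cells under 10% mitochondrial UMIs, G1 cells, means per cell, other limits for measured genes, thinning to 7500 UMIs and rank correlation. Python 3.11.15 with scipy 1.17.1 was used.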

Additional observations from a re-analysis of the deposited data

Results flagged for a closer look

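Some members had a cytokine over vehicle ratio above 0 in 1 cluster or phase and below 0 in another, with both counting intervals clear of 0. These differences between clusters and phases were not tested, because each cluster and phase comes from 1 library per condition. PSMB10 had a log2 ratio of 0.98 in cluster 5 and -0.34 in cluster 4. PSMB6 had 0.29 in cluster 5 and -0.31 in cluster 4. POMP had 0.14 in cluster 5 and -0.195 in cluster 0, and by phase it had 0.25 in G2M cells and -0.0895 in S cells. PSMB7 had 0.25 in G2M cells and -0.14 in S cells. Only 40 cytokine-treated cells were called G2M, and cluster 5 held 134 cytokine-treated cells.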

How the results depend on the processing

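No paired analysis was possible because each condition had 1 library. The 5 members past 2-fold higher and the 0 past 2-fold lower were found under each alternative, except that a limit of CPM 20 for measured genes left 3 past 2-fold higher, since PSMB8 and PSMB9 lie under that limit. Members at least 20% lower numbered 2 under scaling by TMM and 2 under scaling by DESeq2 size factors, against 4 under library totals. The shares of all measured genes at least 20% lower were 24.7%, 23.6% and 38.6% in that order. The median log2 ratio over the members was 0.37 under TMM, 0.38 under DESeq2 size factors, 0.14 with totals that leave out ribosomal protein and mitochondrially encoded genes, and 0.15 in G1 cells, against 0.19. The immunoproteasome share in vehicle cells was 6.98% in G1 cells and 8.40% as a mean of the share per cell, against 7.78%. In all, 10 of 47 members had a ratio whose sign depended on the alternative, PSMB6, POMP, PSMC3, PSMD8, PSMD9, PSMD11, PSMD12, PSMD14, PSME4 and PSMG2. None of these was at least 25% higher or 20% lower. For the scalings this was fixed beforehand, since they shifted log2 ratios by 0.19 at most in size, less than the 25% limit. At least 25% higher under every scaling and choice of cells were 16 members, and at least 20% lower were PSMG3 and PSMD5. The share of all measured genes that met the limits under every alternative was not computed, so these counts have no background. Detection shares moved with depth for all genes tried. The depth limits PSMB9 in vehicle cells, where 57 UMIs were counted, and PSMB8 and PSMB9 in single clusters and in G2M cells.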
